A study of Mus musculus with 15 samples.

Results

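The Wnt and norrin pathway effectors described here are 10 genes chosen by name, and each gene was read from the probe set of the array that GEO's platform annotation pairs with its symbol alone. Of the 10, 9 were measured among the 19938 genes of the array data: the receptors Fzd4 and Fzd6, the co-receptor Lrp5, the receptor partners Tspan12 and Reck, the transcription factor Lef1 and the feedback inhibitors Axin2, Nkd1 and Apcdd1. Each had 1 probe set. The transcription factor Tcf7 was not analysed here. RNA came from microvascular endothelial cells, the lining cells of small blood vessels, of brain (5 arrays, each a pool of 6 mice), heart (5 arrays, pools of 4 mice) and liver (5 arrays, pools of 2 mice). All mice were Tie2-GFP animals on the FVB background, aged 8 to 12 weeks, with the sexes mixed evenly in each pool and no treatment. The cells were sorted on green fluorescent protein driven by the promoter of Tek (Tie2), which is active in endothelium and also in some blood cells. Brain and heart were both digested with collagenase at 37 °C, brain with DNase added and a short trypsin step after a spin through albumin, and liver with dispase at room temperature. Each tissue thus had its own protocol and pool size, which cannot be told apart from tissue, although brain and heart shared the digestion temperature and time. Nothing in the labels says that the pools of a tissue were prepared separately, so p-values measure the spread between these arrays, which may be partly technical.

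In the canonical Wnt pathway a ligand joins a Frizzled receptor to Lrp5 or Lrp6, the complex that destroys beta-catenin is halted, and beta-catenin enters the nucleus, where Lef1 and the Tcf proteins carry it to DNA. Endothelial cells of the central nervous system receive Wnt7a and Wnt7b through a receptor complex that also holds Reck and Adgra2, and norrin, a ligand that is not a Wnt, through Fzd4, Lrp5 and Tspan12. The pathway is known for its part in brain and retinal vessel growth and in the blood-brain barrier, and Axin2, Nkd1 and Apcdd1 are inhibitors whose genes it switches on in many tissues.

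The values are log2 expression values, so a difference of 1 is a doubling. The arrays had medians over all genes between 5.98 and 6.11, and their values correlated across genes at 0.978 to 0.993 within a tissue and 0.918 to 0.960 across tissues, where genes are not independent replicates. The 12 pan-endothelial markers averaged 10.4 to 10.7 on every array. Markers of other cell types differed between tissues. Choroid plexus markers were at 6.73 to 7.99 on brain arrays, against 4.89 to 5.05 on heart and 5.49 to 6.03 on liver arrays. The 8 cardiomyocyte markers were at 7.78 to 9.49 on heart arrays, and the 8 macrophage markers ranged from 5.83 to 8.98 on liver arrays. The 8 fibroblast markers were at 6.46 to 7.80 on heart arrays, against 5.39 to 6.06 on brain and 5.38 to 6.01 on liver arrays. The 8 hepatocyte markers were at 7.16 to 8.01 on liver arrays, against 6.01 to 6.22 on brain and 4.85 to 5.11 on heart arrays. The part of such cells in the values below was not tested. In such bulk samples, fewer cells of a type and less RNA per cell cannot be told apart. In the paragraphs below, the 5 values of a tissue follow the replicate numbers 1 to 5, folds are powers of 2 of the log2 difference, and adjusted p-values come from a limma fit to all 15 arrays with Benjamini-Hochberg adjustment over all genes.

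Brain endothelium held more RNA of 6 of the 9 measured genes than both other endothelia, namely Lef1, Apcdd1, Reck, Axin2, Nkd1 and Fzd6, whereas Fzd4, Tspan12 and Lrp5 did not pass the test between brain and either tissue. Of all genes, 4.7% were higher in brain than in both. Against heart alone 6 members were higher, where 8.29% of all genes were, and 0 were lower, where 7.11% were. Against liver alone the same 6 were higher, with 11.1% of all genes, and 0 were lower, with 14% of all genes. The median difference of the 9 members was 2.28 for brain minus heart and 2.18 for brain minus liver, beside -0.03 and -0.00222 over all genes. The 5 brain arrays lay entirely above the 5 heart arrays for these 6 genes (6.64% of all genes did so), and entirely above the 5 liver arrays for the same 6 (8.62% of all genes). For 0 members did they lie entirely below the heart arrays (6.17% of all genes) or the liver arrays (10.3%). All 6 differences were at least 1 on the log2 scale in both contrasts, though Nkd1 was at 1.01 against liver and fell under 1 in 7 of 23 alternatives (0.92 at the lowest, with arrays centred on the pan-endothelial markers), which left 5. Of all genes, 2.12% were that much higher and 1.74% that much lower in brain than in heart, and 3.49% that much higher and 3.89% that much lower in brain than in liver.

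**Figure D1:**
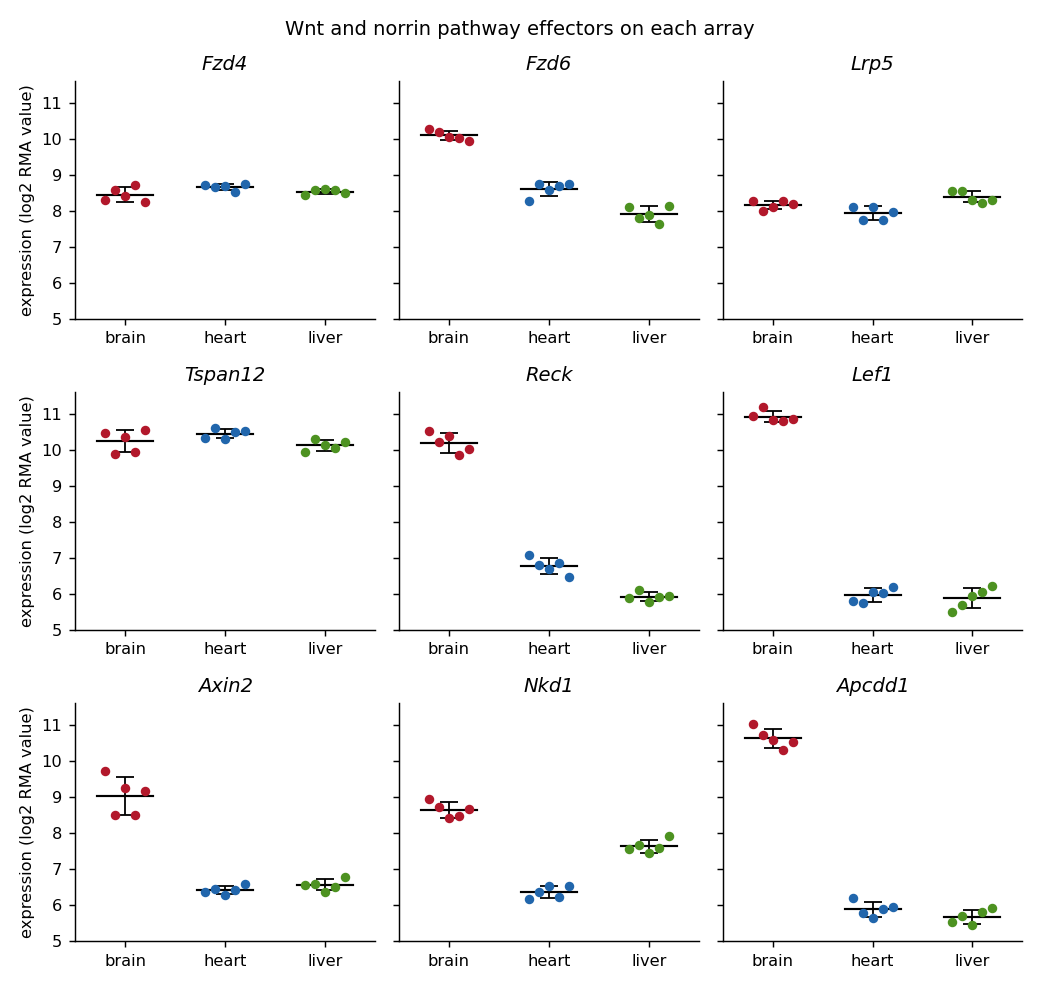
Expression (log2 RMA value, y axis) of the 9 measured members on each of 15 arrays by tissue (x axis), with points for arrays in order of replicate number, a line for the mean and bars for the SD of 5 arrays. Lef1, Apcdd1, Reck, Axin2, Nkd1 and Fzd6 show brain arrays above all heart and liver arrays, while the points of Fzd4 and Tspan12 overlap between tissues.

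The stretches before the start sites of 3 of the brain-high genes are shown because Tcf and Lef proteins are known to bind DNA at the core motif CTTTGA, and because these genes lay together in brain. They are RefSeq sequences of GRCm38.p6, each 250 bases up to the start site and read on the strand of the gene, here the plus strand in all 3, with matches to CTTTGA or its reverse complement TCAAAG in capitals.
Lef1, start site inside the gene, chr3:131156044-131156293: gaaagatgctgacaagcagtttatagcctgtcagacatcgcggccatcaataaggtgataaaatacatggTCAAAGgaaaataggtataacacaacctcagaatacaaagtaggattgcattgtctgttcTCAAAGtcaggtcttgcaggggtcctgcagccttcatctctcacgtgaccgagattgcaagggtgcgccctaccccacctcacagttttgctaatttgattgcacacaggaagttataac
Axin2, chr11:108920099-108920348: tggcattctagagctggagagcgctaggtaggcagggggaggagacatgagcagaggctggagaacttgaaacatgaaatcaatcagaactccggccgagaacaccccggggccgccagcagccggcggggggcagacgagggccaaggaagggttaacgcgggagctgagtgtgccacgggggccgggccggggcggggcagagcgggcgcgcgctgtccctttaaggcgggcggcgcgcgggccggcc
Reck, chr4:43875280-43875529: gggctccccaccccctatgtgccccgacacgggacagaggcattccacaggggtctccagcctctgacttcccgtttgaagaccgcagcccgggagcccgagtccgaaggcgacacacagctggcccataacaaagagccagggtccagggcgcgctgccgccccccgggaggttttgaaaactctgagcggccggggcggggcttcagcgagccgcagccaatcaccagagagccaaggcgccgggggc
The table holds 4 stretches for Lef1, and the one shown, chosen because it holds matches, had 2, both TCAAAG, with first bases 180 and 120 bases before the start site. It held 0 matches to the longer forms CTTTGAT and CTTTGAA on either strand, which 7.48% of all stretches held. The other 3 Lef1 stretches and those of Axin2 and Reck held 0. Across the 11 stretches searched, of 7 members (Fzd4, Tspan12, Reck, Lef1, Tcf7, Axin2 and Nkd1), this Lef1 stretch was the only 1 with the motif. The search of members, unlike the count over all stretches, skipped 1 chromosome. Apcdd1, Fzd6 and Lrp5 had no stretch among those searched, so nothing is said of them. Of all 32851 stretches of this length in the table, 13.8% held it on either strand, so a match in 1 of 11 is a description and not a site.

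Among the receptors, Fzd6 was higher in brain, while Fzd4, the norrin receptor, had similar values in the 3 tissues. Fzd6, a Wnt receptor best known for the planar orientation of cells and hairs, had values of 10.27, 10.20, 10.03, 10.01 and 9.94 on brain arrays, 8.28, 8.74, 8.58, 8.68 and 8.75 on heart arrays, and 8.11, 7.79, 7.89, 7.63 and 8.13 on liver arrays. The 3 tissues did not overlap, with brain highest and liver lowest. Brain exceeded heart 2.80-fold (log2 1.49, SE 0.11, adjusted p = 2.25e-08) and liver 4.53-fold (log2 2.18, SE 0.11, adjusted p = 4.89e-11). Heart exceeded liver by 0.69 (SE 0.11, adjusted p = 0.000128), so that all neighbours in the order brain, heart, liver differed beyond their spread.

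Fzd4 had values of 8.30, 8.56, 8.40, 8.72 and 8.23 on brain arrays, 8.72, 8.65, 8.69, 8.53 and 8.75 on heart arrays, and 8.44, 8.56, 8.59, 8.56 and 8.49 on liver arrays. The tissues overlapped, and brain replicates 2 and 4 were the highest brain arrays. Brain minus heart was -0.23, with a 95% interval from -0.41 to -0.04 that takes no account of multiple testing (adjusted p = 0.106), and brain minus liver was -0.09 (interval -0.27 to 0.10, adjusted p = 0.583). Without brain replicate 4 the brain minus heart value was -0.30 and passed the test (adjusted p = 0.0205). The interval against liver leaves room for a brain level up to 0.10 higher, far below the differences of the 6 genes above.

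The co-receptor Lrp5 and the tetraspanin Tspan12, which strengthens the norrin signal through Fzd4, also lay close together across tissues. Lrp5 had values of 8.27, 8.00, 8.11, 8.27 and 8.18 on brain arrays, 8.11, 7.75, 8.11, 7.73 and 7.97 on heart arrays, and 8.55, 8.54, 8.30, 8.22 and 8.30 on liver arrays. Brain lay between the others and overlapped both, and the heart arrays lay below all liver arrays. Heart was lower than liver by a log2 difference of -0.45 (SE 0.10, adjusted p = 0.00209), while brain minus heart was 0.23 (interval 0.02 to 0.44, adjusted p = 0.139) and brain minus liver -0.22 (interval -0.42 to -0.01, adjusted p = 0.129). Heart replicates 1 and 3 had the highest heart values of Lrp5. They also had the highest cardiomyocyte, fibroblast, and pericyte and smooth muscle markers of the heart arrays. Without them Lrp5 was 0.35 higher in brain than in heart (adjusted p = 0.0372). Leaving out the highest heart values raises this difference by itself, and the part of other cell types was not tested.

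Tspan12 had values of 10.47, 9.89, 10.36, 9.95 and 10.55 on brain arrays, 10.31, 10.60, 10.30, 10.50 and 10.53 on heart arrays, and 9.93, 10.30, 10.12, 10.04 and 10.22 on liver arrays. The tissues overlapped, and brain replicates 2 and 4 lay below the other 3 brain arrays. Brain minus heart was -0.21 (interval -0.47 to 0.06, adjusted p = 0.319) and brain minus liver 0.12 (interval -0.14 to 0.38, adjusted p = 0.585). Heart minus liver was 0.33 (adjusted p = 0.0617), a value near the threshold that fell below it in a fit with heart and liver arrays only (adjusted p = 0.0203). It also did so without brain replicate 2, 4 or 5, without liver replicate 2, without heart replicates 1 and 3 and with low-mean genes left out (adjusted p-values from 0.0395 to 0.0496), and the unadjusted exact permutation p was 0.0159.

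Reck, a membrane-anchored protein that binds Wnt7a and Wnt7b and hands them to the receptor, stood out among the receptor partners. It had values of 10.52, 10.21, 10.37, 9.85 and 10.02 on brain arrays, 7.07, 6.80, 6.70, 6.86 and 6.47 on heart arrays, and 5.88, 6.11, 5.77, 5.90 and 5.94 on liver arrays. No array of a tissue overlapped another tissue. Brain exceeded heart 10.7-fold (log2 3.41, SE 0.13, adjusted p = 1.3e-12) and liver 19.3-fold (log2 4.27, SE 0.13, adjusted p = 2.01e-14), and heart exceeded liver by 0.86 (adjusted p = 4.52e-05). Reck was 52 of 19938 genes when ordered by the brain minus heart difference and 51 by brain minus liver.

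The partners of these receptors varied less than Reck. Adgra2 (Gpr124), the adhesion receptor that works with Reck, was 8.28 ± 0.24 on brain, 6.86 ± 0.11 on heart and 7.75 ± 0.18 on liver arrays (SD, n = 5 each), higher in brain than in heart by 1.42 (adjusted p = 3.73e-08) and than in liver by 0.52 (adjusted p = 0.00164). Unlike Reck, it was lower in heart than in liver (-0.90, adjusted p = 7.2e-06). The co-receptor Lrp6 was highest in liver, at 9.17 ± 0.11 on brain, 8.85 ± 0.10 on heart and 9.75 ± 0.07 on liver arrays, and brain minus liver was -0.58 (adjusted p = 9.34e-06). None of the 3 ligands passed the test between any tissues. Ndp, the gene of norrin, was 4.67 ± 0.10 on brain, 4.74 ± 0.19 on heart and 4.58 ± 0.15 on liver arrays. Wnt7a was 4.72 ± 0.12, 4.85 ± 0.15 and 4.84 ± 0.21, and Wnt7b 5.57 ± 0.23, 5.76 ± 0.20 and 5.78 ± 0.13, in the same order of tissues. Their adjusted p-values lay between 0.236 and 0.933 over the 3 contrasts, which does not show that their levels were alike. All their tissue means lay below the medians of the arrays (5.98 to 6.11), and whether they exceed background is not known.

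**Figure D2:**
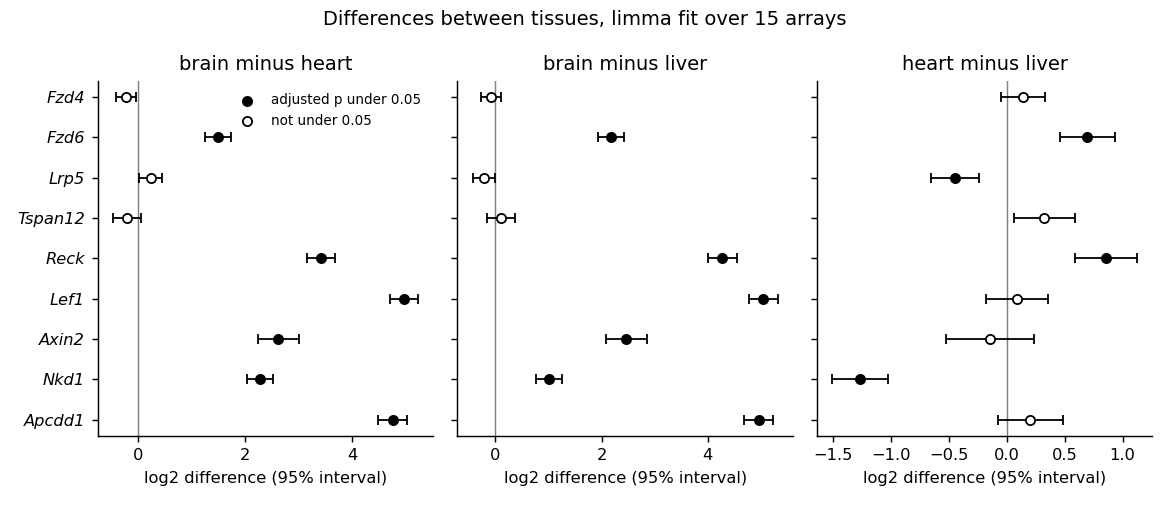
Log2 difference (x axis) of each of the 9 members (y axis) in 3 panels, brain minus heart, brain minus liver and heart minus liver, from the limma fit, with bars for 95% intervals and filled points for an adjusted p under 0.05. The 6 brain-high genes lie to the right in the first 2 panels, while on heart minus liver Fzd6 and Reck lie to the right and Nkd1 and Lrp5 to the left.

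Of the transcription factors that carry beta-catenin to DNA, Lef1 had the largest difference of all members. It had values of 10.93, 11.18, 10.84, 10.81 and 10.84 on brain arrays, 5.79, 5.75, 6.05, 6.01 and 6.20 on heart arrays, and 5.51, 5.68, 5.94, 6.04 and 6.21 on liver arrays. The lowest brain array stood 4.61 log2 units above the highest heart array, and heart and liver arrays overlapped over almost their whole range. Brain minus heart was 4.96 (SE 0.13, adjusted p = 8.37e-15) and brain minus liver 5.04 (SE 0.13, adjusted p = 2.2e-15). Heart minus liver was 0.08 (interval -0.18 to 0.35, adjusted p = 0.671). Lef1 was 19 of 19938 genes in the order of brain minus heart and 29 in that of brain minus liver.

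Lef1 is also a gene of T lymphocytes, and the part of such cells in its values was not tested. Of 9 measured T cell and lymphoid markers, 0 exceeded both other tissues in brain, which is near the 4.7% of all genes that did. The mean of these markers was 4.50 to 4.71 on brain arrays, against 4.70 to 5.03 on heart and 4.66 to 5.44 on liver arrays. The related factors that bind the same DNA did not share the pattern of Lef1. Tcf7l2 was 8.85 ± 0.17 on brain, 8.91 ± 0.14 on heart and 8.96 ± 0.13 on liver arrays, with adjusted p-values of 0.752, 0.459 and 0.711 for brain minus heart, brain minus liver and heart minus liver. Tcf7l1, which often acts as a repressor, was 7.11 ± 0.40 on brain, 7.36 ± 0.27 on heart and 8.30 ± 0.28 on liver arrays, higher in liver than in brain (brain minus liver -1.19, adjusted p = 5.63e-05) and than in heart (heart minus liver -0.94, adjusted p = 0.000691). Ctnnb1, which encodes beta-catenin itself, was 10.80 ± 0.19 on brain, 10.70 ± 0.07 on heart and 9.59 ± 0.28 on liver arrays. It did not pass between brain and heart (0.10, adjusted p = 0.664) and was lower in liver (brain minus liver 1.21, adjusted p = 3.39e-07).

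All 3 feedback inhibitors were higher in brain, but they differed in how heart and liver stood to each other. Apcdd1, a membrane protein that binds Wnt ligands and their receptors, had values of 11.02, 10.72, 10.57, 10.32 and 10.52 on brain arrays, 6.19, 5.76, 5.63, 5.88 and 5.93 on heart arrays, and 5.53, 5.69, 5.44, 5.81 and 5.91 on liver arrays. The brain arrays stood at least 4.13 log2 units clear of the others, and heart and liver overlapped. Brain minus heart was 4.75 (SE 0.13, adjusted p = 2.47e-14), brain minus liver 4.95 (SE 0.13, adjusted p = 4.73e-15) and heart minus liver 0.20 (interval -0.07 to 0.48, adjusted p = 0.279).

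Axin2, a scaffold of the complex that destroys beta-catenin and a widely used reporter of Wnt activity, had values of 9.71, 8.50, 9.24, 8.50 and 9.17 on brain arrays, 6.35, 6.43, 6.29, 6.41 and 6.58 on heart arrays, and 6.55, 6.59, 6.36, 6.50 and 6.78 on liver arrays. Every brain array lay above every other array, but the brain arrays themselves spanned more than a log2 unit, with an SD of 0.52 against 0.11 in heart and 0.15 in liver. Brain exceeded heart 6.12-fold (log2 2.61, SE 0.18, adjusted p = 6.04e-09) and liver 5.53-fold (log2 2.47, SE 0.18, adjusted p = 5.81e-09). Heart minus liver was -0.15 (interval -0.53 to 0.23, adjusted p = 0.599).

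Nkd1, which binds the Dishevelled proteins that relay the Wnt signal, was, like Lrp5, lower in heart than in liver. It had values of 8.94, 8.73, 8.40, 8.47 and 8.66 on brain arrays, 6.16, 6.36, 6.52, 6.22 and 6.54 on heart arrays, and 7.55, 7.66, 7.45, 7.57 and 7.91 on liver arrays. The 3 tissues did not overlap, in the order brain, liver, heart, and each neighbour differed beyond its spread. Brain exceeded heart 4.85-fold (log2 2.28, SE 0.11, adjusted p = 8.36e-11) and liver 2.01-fold (log2 1.01, SE 0.11, adjusted p = 1.82e-06). Heart minus liver was -1.27 (SE 0.11, adjusted p = 1.35e-07), the opposite direction to Fzd6 and Reck. Liver replicate 3 had the lowest liver value of Nkd1 and the highest macrophage markers (8.98), with replicates 1 and 4 close at 8.42 and 8.58. Liver replicate 5 had the highest Nkd1 value, the lowest macrophage markers (5.83) and the highest hepatocyte markers (8.01). Without replicate 3 heart minus liver was -1.31 (adjusted p = 3.67e-07). The part of these other cell types in the liver values was not tested.

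Between heart and liver, then, 4 of the 9 members passed, 2 higher in heart (Fzd6 and Reck, where 11.5% of all genes were higher) and 2 lower (Nkd1 and Lrp5, where 16.3% were lower). The same genes had heart arrays entirely above (8.81% of all genes) or entirely below (11.8%) the liver arrays. Nkd1 alone differed by at least 1 on the log2 scale, where 2.83% of all genes were that much higher in heart and 3.68% that much lower. Heart was above both other tissues for 0 members (3.73% of all genes) and below both for Nkd1 (3.27%), and liver was above both for 0 members (10.4%) and below both for Fzd6 and Reck (5.64%). The median difference of the members was 0.14, beside 0.03 over all genes.

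**Figure D3:**
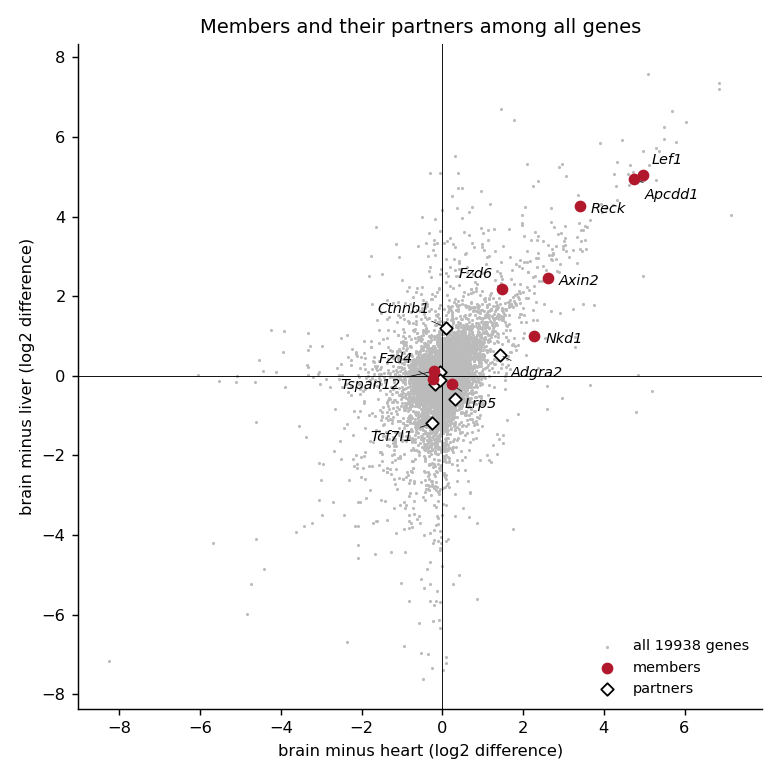
Each of 19938 genes by its log2 difference brain minus heart (x axis) and brain minus liver (y axis), with the 9 members as filled circles and 8 partners as open diamonds. The 6 brain-high members extend to the upper right, up to 4.96 and 5.04 for Lef1, and the other 3 members lie near the origin with Tcf7l2 and the ligands. The axes share the brain arrays, so the diagonal spread of the cloud is not a result.

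The 6 brain-high members are grouped by their level in brain, so high correlations among them across tissues follow from that grouping. Over the 15 arrays their 15 pairwise Pearson correlations ran from 0.615 (Fzd6 with Nkd1) to 0.995 (Lef1 with Apcdd1). After the tissue means were removed, the same correlations ran from -0.22 (Reck with Lef1) to 0.67 (Reck with Apcdd1). Over all 36 pairs of the 9 members, with tissue means removed, the lowest was Fzd4 with Axin2 at -0.72 and the highest Tspan12 with Axin2 at 0.80. These were picked as the extremes, and the median of the 36 was 0.08. Axin2 varied most among the brain arrays. In heart, replicate 5 was the highest for both Fzd4 and Axin2, so the opposite direction was not shown in every tissue. In the brain arrays replicates 2 and 4 had the lowest values of both Axin2 and Tspan12 and the highest of Fzd4.

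Brain replicate 1 gave the highest value of 5 of the 6 brain-high members (all but Lef1), and replicate 4 the lowest of 4 of them. The pan-endothelial markers had the same extremes among brain arrays, 10.71 in replicate 1 and 10.41 in replicate 4. Brain replicate 1 also had the highest markers of several other cell types: its 12 pericyte and smooth muscle markers averaged 7.64, against 6.11 to 6.88 on the other brain arrays, with 6.65 to 8.05 on heart and 5.95 to 6.07 on liver arrays. In brain 0 of these 12 markers were higher than in both other tissues, near the 4.7% of all genes. In heart 3 were, where 3.73% of all genes were. Without brain replicate 1 the 6 calls stood, with brain minus heart at 2.44 for Axin2, 3.33 for Reck, 4.65 for Apcdd1, 2.20 for Nkd1, 1.44 for Fzd6 and 4.96 for Lef1. The choroid plexus markers, of which 4 of 5 were higher in brain than in both (4.7% of all genes were), were highest on brain replicate 1 too. The part of these marker groups in the spread of the members was not tested.

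**Figure D4:**
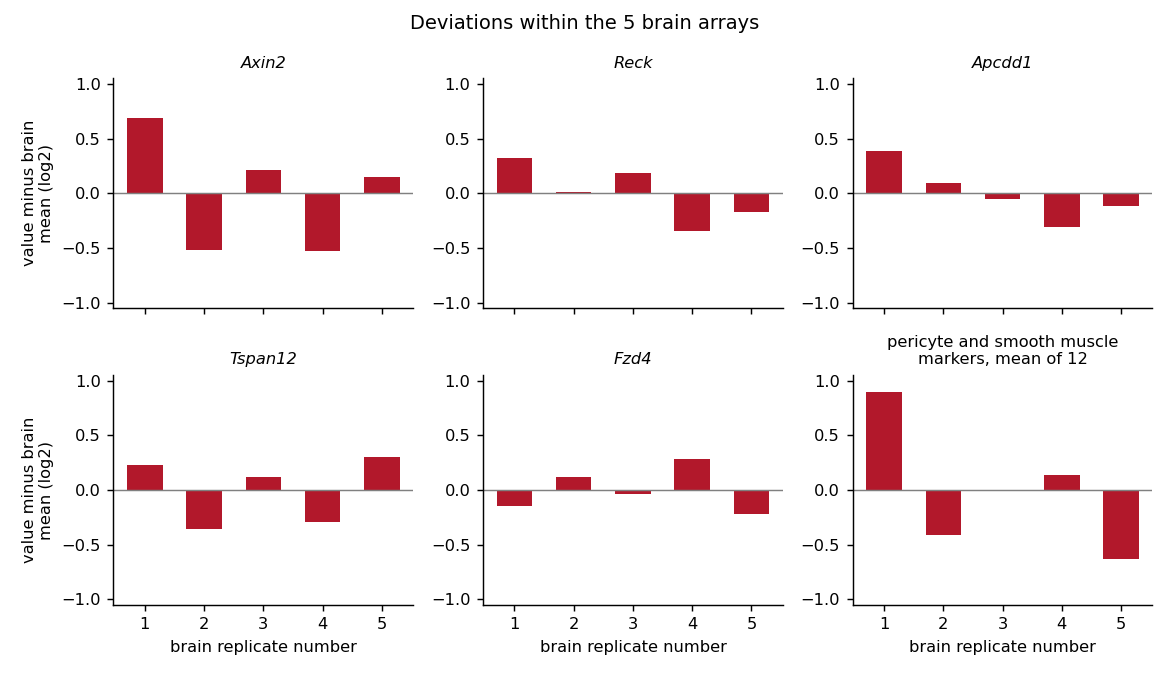
Deviation of each of the 5 brain arrays (x axis, replicate number) from the brain mean in log2 units (y axis) for Axin2, Reck, Apcdd1, Tspan12, Fzd4 and the mean of 12 pericyte and smooth muscle markers. Replicate 1 is highest for Axin2, Reck, Apcdd1 and the markers, and replicates 2 and 4 are low for Axin2 and Tspan12 and high for Fzd4.

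The genes most like Lef1 over the 15 arrays, by Pearson correlation and with the members left out, were Slc22a8 (0.997), Slco1c1 (0.996), Slc38a5 (0.996), Far2 (0.995), Sema3c (0.995), Mfsd2a, Ocln and Slco1a4 (0.994 each). Of these 8 genes, 5 encode membrane transporters (Slc22a8, Slco1c1, Slc38a5, Mfsd2a and Slco1a4), and Ocln encodes the tight junction protein occludin. The mean centred profile of the 9 members was most like Mfsd2a (0.998), Slc22a8 (0.998), Slc38a5 (0.998), Spock2 (0.997), Slc38a3 (0.996), Slco1a4 (0.996), Gkn3 (0.996) and Sgpp2 (0.995). All these correlations rest on 15 arrays that share 3 tissues.

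Of the rest of the pathway, some genes shared the brain pattern and most did not. The 8 lists of other Wnt genes, ordered by role, held 136 genes, of which 135 were measured. Of these, 23 exceeded both other tissues in brain, a larger share than the 4.7% of all genes, and 5 were lower, where 2.82% were. But 12 of the 23 came from the 16 measured barrier genes tied to beta-catenin, which are known for their level in brain endothelium. Without the barrier genes the share was smaller but still above 4.7%. The lists were chosen with earlier results of these data known. The median brain minus heart difference over the 135 genes was -0.01, and over the 16 barrier genes 1.49.

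Of 24 ligands, 1 was higher in brain than in both, near the 4.7% of all genes. This was Wnt5a, a ligand that often signals without beta-catenin, at 6.44 ± 0.22 on brain, 4.80 ± 0.15 on heart and 4.70 ± 0.26 on liver arrays (3.12-fold over heart, adjusted p = 3.25e-08). Liver was higher than both for 2 of the 24 ligands, near the 10.4% of all genes. These were Wnt2 (7.76 ± 0.64, 4.95-fold over heart, adjusted p = 3.36e-07) and Rspo3, an R-spondin that amplifies Wnt signals (7.61 ± 0.55, 9.56-fold over brain, adjusted p = 2.0e-10). Of 3 genes of ligand release, 1 was higher in heart than in both, where 3.73% of all genes were. This was Gpc4 (6.26 ± 0.16, 2.02-fold over brain, adjusted p = 9.61e-05). Of 18 other receptors, 2 were higher in brain than in both, Fzd3 and Adgra2, where 4.7% of all genes were. Fzd3 was 7.40 ± 0.28 on brain, 5.58 ± 0.32 on heart and 4.60 ± 0.10 on liver arrays (3.53-fold over heart, adjusted p = 4.81e-08), the same order of tissues as Fzd6.

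The complex that destroys beta-catenin and the nuclear partners showed 0 of 20 and 0 of 16 genes higher in brain than in both. Of all genes 4.7% were, so a count of 0 in lists this short is near that share. Brain was lower than both for Apc of the destruction complex (8.25 ± 0.17 on brain, 8.53 ± 0.14 on heart and 8.78 ± 0.09 on liver arrays, adjusted p-values 0.0483 against heart and 0.000209 against liver). The call of Apc was lost in 18 of 23 alternatives, with an adjusted p against heart of up to 0.128. The other 4 genes lower in brain were Tmem88, Cxxc4, Ccnd1 and Cd44, and all but Tmem88 of these 5 were named after their values were seen. Tmem88, a membrane protein that holds back Wnt signals at Dishevelled, was 8.11 ± 0.09 on brain, 9.68 ± 0.22 on heart and 9.50 ± 0.17 on liver arrays (brain minus liver -1.39, adjusted p = 1.11e-08). Ccnd1, a cell cycle gene and a common Wnt target, was 8.26 ± 0.26 on brain, 9.25 ± 0.32 on heart and 9.77 ± 0.34 on liver arrays.

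Inhibitors and feedback targets held most of the other brain-high genes outside the barrier list. Of 27 inhibitors 5 were higher in brain than in both and 2 lower, and of 17 feedback and common targets 6 were higher and 2 lower. Notum and Znrf3 are on both lists, and Sox17, 1 of the 6 targets, is also on the barrier list. Of all genes, 4.7% were higher and 2.82% lower. Tnfrsf19 (Troy), a receptor of the tumour necrosis factor family, was 8.31 ± 0.28 on brain, 5.50 ± 0.10 on heart and 5.37 ± 0.18 on liver arrays (log2 2.81 over heart, adjusted p = 9.54e-12). Notum, a secreted enzyme that strips the lipid from Wnt ligands, was 7.74 ± 0.39 on brain, 5.59 ± 0.10 on heart and 5.58 ± 0.15 on liver arrays (4.44-fold over heart, adjusted p = 4.57e-09). Znrf3, a ubiquitin ligase that removes Frizzled receptors, was 6.60 ± 0.21 on brain, 5.25 ± 0.13 on heart and 4.81 ± 0.20 on liver arrays (2.54-fold over heart, adjusted p = 8e-08). The secreted inhibitor Dkk2 was 7.19 ± 0.45 on brain, 6.18 ± 0.10 on heart and 5.89 ± 0.19 on liver arrays (2.02-fold over heart, adjusted p = 0.000215). The Notch ligand Jag1, 1 of the 6 targets above, was also lower in liver than in both, at 8.74 ± 0.42 on brain, 7.77 ± 0.09 on heart and 6.60 ± 0.17 on liver arrays (heart minus liver 1.17, adjusted p = 1.11e-05).

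Beside 4.7% of all genes higher in brain than in both and 2.82% lower, 12 of the 16 barrier genes were higher and 0 lower. Leading them were Slco1c1 (117-fold over heart), Mfsd2a (55.5-fold over heart), Slc2a1, a glucose transporter (45.2-fold over heart), and Ocln (34.9-fold over heart), beside 31.1-fold for Lef1 and 26.9-fold for Apcdd1.

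**Figure D5:**
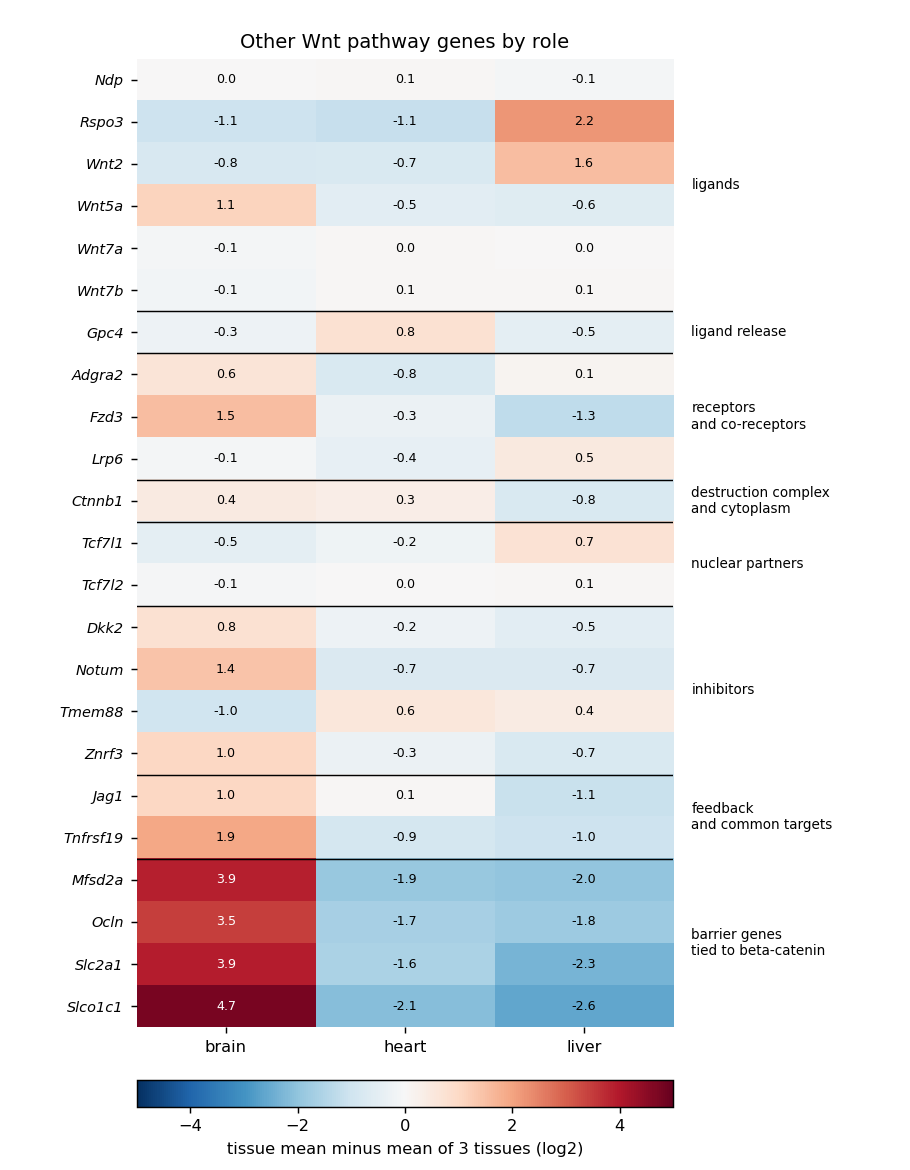
Tissue mean minus the mean of the 3 tissues, in log2 units (colour and printed value), for 23 other Wnt pathway genes (y axis, grouped by role) in brain, heart and liver (x axis). Brain is the highest tissue for the inhibitors Dkk2, Notum and Znrf3, for Tnfrsf19 and Fzd3 and for the barrier genes, while Rspo3 and Wnt2 are highest in liver and Ndp, Wnt7a and Wnt7b vary little.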

How the data were processed

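The authors deposited log2 expression values for 35556 probe sets on 15 arrays, 1 column per array. Per the submitters' processing notes they were made by RMA with Affymetrix Power Tools; their versions and the genome build are not stated there. RMA normalizes arrays to 1 distribution, so values are relative to the other genes of an array. The RNA was amplified before hybridisation, per the labels' protocols. The scanner files were not used, so no test against background was made. Probe sets with a single symbol (21789) gave 19938 genes, by the highest mean over the arrays. A mean per tissue was fitted with limma 3.58.1 in R 4.3.3 (lmFit, eBayes, 12 residual degrees of freedom), with Benjamini-Hochberg adjustment over all genes and a threshold of 0.05, and checked on simulated data. The number of arrays, 5 per tissue, limits the precision. Exact permutation tests of 5 against 5 arrays cannot go below p = 0.00794, two-sided. From the role lists, genes were named when 1 tissue stood above or below each of the others by a log2 difference of at least 1 with each adjusted p under 0.05, up to 4 per list; 8 partners were named whatever their values. Members, lists and markers were chosen with earlier results of these data known. Alternatives are listed in the closing section. All mapped columns were used.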

Additional observations from a re-analysis of the deposited data

Results flagged for a closer look

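Of 132 groups of 5 arrays examined (members, partners, named genes and marker lists, by tissue), 7 held an array set apart from the other 4 by Dixon's ratio of its gap to the group's range, against a critical value of 0.71; chance gives about 1 in 20. None of the 27 groups of the members did. Brain replicate 1 was set apart and highest for the astrocyte markers (6.12, nearest array 5.77, ratio 0.901) and the fibroblast markers (6.06, nearest 5.52, ratio 0.808). Brain replicate 4 was lowest for Tnfrsf19 (7.82, nearest 8.36, ratio 0.788), and brain replicate 3 highest for Rspo3 (4.61, nearest 4.34, ratio 0.739). Liver replicate 5 was highest for the choroid plexus markers (6.03, nearest 5.5997, ratio 0.799), a list that includes the hepatocyte product Ttr. Liver replicate 1 was lowest for Ndp (4.32, nearest 4.59, ratio 0.734), and heart replicate 5 highest for Wnt7a (5.12, nearest 4.85, ratio 0.727).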

How the results depend on the processing

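The 6 calls of members higher in brain than in both stood under every alternative run: leaving out each array (6 to 6 members), a replicate block, centring of arrays on their median or on the pan-endothelial markers, a filter on low means, the mean of all probe sets, pairwise fits, a trended robust prior, exact permutation tests and leaving out heart replicates 1 and 3. The mean of all probe sets left the members' values unchanged, as each had 1 probe set. For genes whose arrays do not overlap, the exact permutation p is always 0.00794. Neither alternative could thus have altered these calls. With the replicate block, 6 members were called for brain minus heart, 6 for brain minus liver and 4 for heart minus liver, and 25 other Wnt genes were higher in brain than in both and 4 lower, without Apc. The labels do not say that a number marks a shared batch or day, so the samples were not treated as paired. The data hint at a shared factor, however. Same-number correlations of deviations ran from -0.00053 to 0.204 (median 0.095), with 14 of 15 above 0 and 6 over 0.1. Other-number ones ran from -0.167 to 0.126 (median -0.02), and 8 of 15 arrays were closest to their own number in both other tissues. Leaving out each array gave 6 to 7 members called for brain minus heart, 6 to 6 for brain minus liver, 4 to 5 for heart minus liver, 0 to 0 lower in brain than in both, 22 to 25 other Wnt genes higher and 4 to 5 lower, with 6 to 7, 6 to 7 and 4 to 5 members not overlapping. Of the members' single differences under alternatives, 635 kept their direction where called and their side of the threshold, 13 passed it where the value reported did not, all of Fzd4, Lrp5 or Tspan12, and 0 were lost or reversed. Unadjusted exact permutation p-values for Fzd4 heart minus liver (0.0318) and Lrp5 brain minus heart and brain minus liver (0.0397 each) were among these 13. Centring moved the median of all genes by under 0.1. Without scanner files, signal over background is not known for low values such as those of Lef1 and Apcdd1 in heart and liver.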

Other observations

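Liver endothelium was higher than both other tissues for 11 of the 135 other Wnt pathway genes (10.4% of all genes were), and those below were named after their values were seen. Wls, which carries Wnt ligands to the cell surface for release, was 8.17 ± 0.14 on brain, 7.26 ± 0.23 on heart and 8.85 ± 0.04 on liver arrays (SD, n = 5 each; brain minus liver -0.69, adjusted p = 3.65e-05 by limma). Ryk, a Wnt receptor related to tyrosine kinases, was 7.92 ± 0.15 on brain, 8.06 ± 0.12 on heart and 8.81 ± 0.19 on liver arrays (heart minus liver -0.74, adjusted p = 1.83e-05). Bcl9, a beta-catenin partner in the nucleus, was 7.54 ± 0.19 on brain, 7.47 ± 0.23 on heart and 8.09 ± 0.37 on liver arrays (brain minus liver -0.55, adjusted p = 0.0125). Plvap, a protein of the diaphragms of permeable vessels, was 6.57 ± 0.07 on brain, 6.43 ± 0.22 on heart and 7.48 ± 0.40 on liver arrays (brain minus liver -0.91, adjusted p = 0.000164). Heart was lower than both for Tle1, a co-repressor of the Tcf proteins, at 8.41 ± 0.14 on brain, 7.45 ± 0.20 on heart and 8.59 ± 0.11 on liver arrays (heart minus liver -1.15, adjusted p = 7.74e-08).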
